A study of Mus musculus with 9 samples.

Results

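Cadherins, the intermediate filament vimentin, fibronectin and the genes that act around them were followed in mouse primary hepatocytes under endoplasmic reticulum stress, with and without hepatocyte COX-2. The 9 genes were chosen by name: the cadherins Cdh1 and Cdh2, the filament gene Vim, the matrix genes Fn1, Nid1 and Sparc, the ligand gene Tgfb2, and the transcription factor genes Snai1 and Snai2. The choice was made with earlier results of these data known. All 9 were found among the 54532 genes of the deposited table. Of the 9 genes, 8 reached the level at which a gene was tested, and Snai1 did not.

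RNA was sequenced from 3 groups of 3 libraries. CKO Tu cells came from COX-2fl/fl;Alb-Cre+ mice and received tunicamycin. WT Tu cells came from littermate COX-2fl/fl;Alb-Cre- mice and received tunicamycin, and WT DMSO cells came from those WT mice and received the solvent DMSO. Both genotypes carried the floxed COX-2 alleles on C57BL/6, and the labels describe age-matched males without giving the age. Alb-Cre is driven by the albumin promoter and acts in hepatocytes. Cells isolated by 2-step liver perfusion were kept in 1% serum for 2 hours and were then exposed to 6 μmol/L tunicamycin or DMSO for 24 hours. Knockout cells with DMSO were not among the groups, so the effect of tunicamycin in CKO cells, and that of the knockout without tunicamycin, were not measured here.

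Tunicamycin blocks N-glycosylation and so burdens the endoplasmic reticulum with misfolded proteins. Cadherins are calcium-dependent adhesion proteins that join neighbouring cells and hold the actin cytoskeleton through catenins. E-cadherin marks epithelia and N-cadherin is typical of mesenchymal and neural cells, and liver parenchymal cells carry both. In the epithelial-mesenchymal transition, factors of the Snail family repress Cdh1 by binding E-boxes, while N-cadherin, vimentin and fibronectin are commonly used as marks of the mesenchymal state. TGF-beta ligands are known inducers of that transition in cultured hepatocytes. Fibronectin is also an ordinary product of the hepatocyte, which secretes it into plasma.

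Libraries held between 14897358 and 16001484 fragments assigned to genes, and between 11176 and 11324 genes per library had a level of at least 1 FPKM. The deposited unit is FPKM, in which a gene's fragments are divided by its length and by the size of its library, and it allows levels of different genes to be set side by side. The cells were hepatocyte in kind, with 10276 ± 287 FPKM of Alb in CKO Tu, 14277 ± 745 FPKM in WT Tu and 14418 ± 776 FPKM in WT DMSO (SD, n = 3). Alb was the 1 of 11 hepatocyte markers called lower in CKO Tu than in WT Tu by the test used below. Of the 11, 9 were called higher, where 18.7% of all tested genes were higher and 19.6% lower. Ptgs2, which encodes COX-2, had 1, 1 and 2 fragments in CKO Tu, against 8, 5 and 5 in WT Tu and 0, 13 and 8 in WT DMSO. With counts this low, and with the deleted exons not given in the sources used here, Ptgs2 checks the genotype labels only weakly. Xist, the RNA that coats the inactive X chromosome of female cells, had 0 to 3 fragments in CKO Tu libraries and 20659 to 33657 in the WT libraries. Of Y-linked transcripts, Uty, Kdm5d, Eif2s3y and Ddx3y together had 3486 to 3633 fragments in CKO Tu libraries and 0 in every WT library. Sex-linked transcription thus went against the labelled sex in the WT libraries, and sex and genotype cannot be told apart in any comparison with CKO Tu below. WT Tu replicate 1 stood apart on the second principal component, at -36.6 against -19.6 for both other WT Tu libraries. Whether a group's replicates were separate animals is not stated, and the p-values below reflect the spread among libraries, which may be technical.

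**Figure D1:**
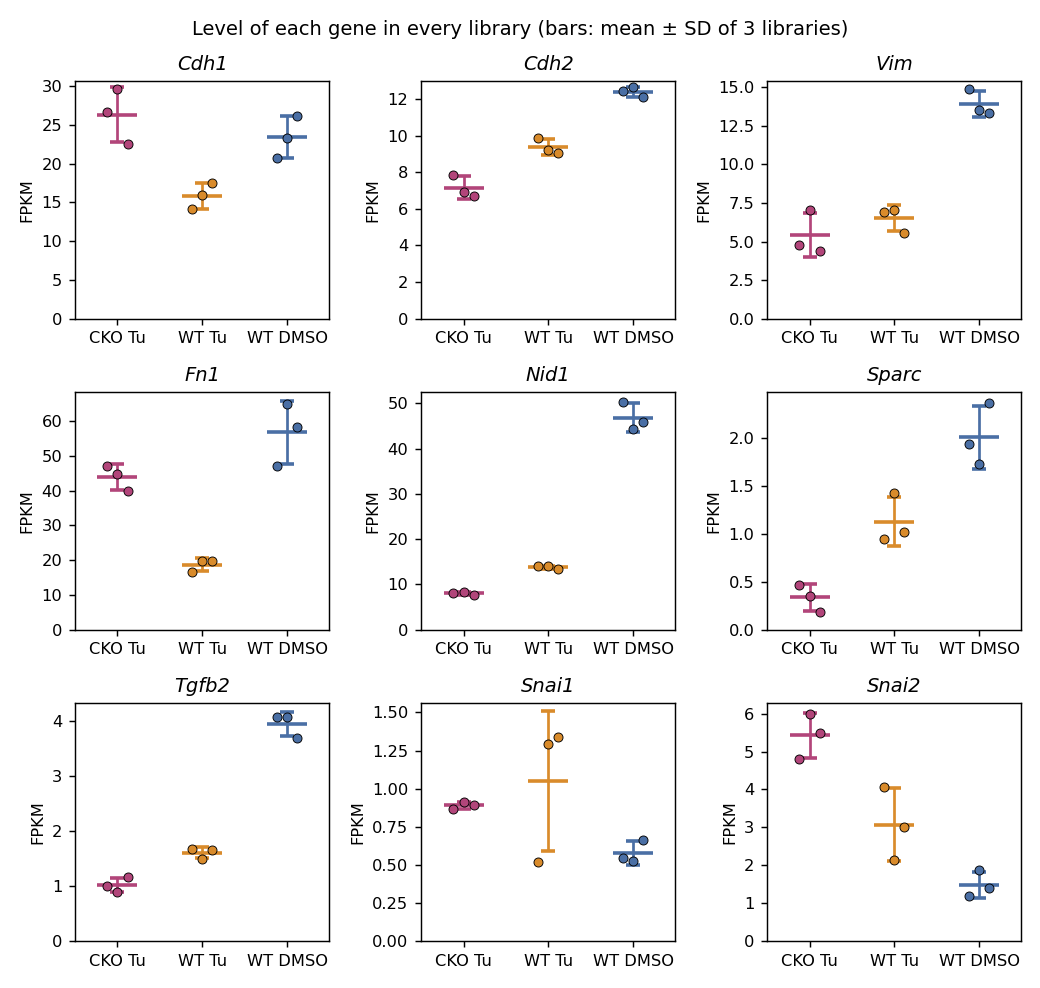
Level of the 9 genes in FPKM (vertical axes, each starting at 0) in each of the 9 libraries, by group. Points are libraries, and bars give the mean and SD of 3 libraries. Cdh2, Vim, Nid1, Sparc and Tgfb2 are lowest in CKO Tu and highest in WT DMSO, Snai2 is highest in CKO Tu and lowest in WT DMSO, and Cdh1 and Fn1 are lowest in WT Tu.

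E-cadherin RNA was lowest in tunicamycin-treated wild-type cells. Cdh1 (ENSMUSG00000000303, mm10 chr8:106603351-106670246, plus strand) stood at 26.7, 29.7 and 22.6 FPKM in CKO Tu, at 14.2, 15.9 and 17.5 FPKM in WT Tu, and at 20.8, 23.3 and 26.2 FPKM in WT DMSO. Every WT Tu library was below every library of the other groups, while CKO Tu and WT DMSO overlapped. With tunicamycin, WT cells had 32.3% less Cdh1 than with DMSO. The difference in log2(FPKM + 1) was -0.53 ± 0.12 (SE; limma adjusted p = 0.0089). Among tunicamycin-treated cells, Cdh1 averaged 26.3 ± 3.56 FPKM in CKO Tu and 15.9 ± 1.65 FPKM in WT Tu (SD, n = 3), a 1.66-fold higher level in CKO Tu (difference 0.69 ± 0.12, SE; limma adjusted p = 0.0022). CKO Tu did not pass the test against WT DMSO, and the difference of 0.16 had a 95% interval of -0.11 to 0.43 (limma adjusted p = 0.3). The threshold throughout is an adjusted p of 0.05, over the 11858 genes with at least 1 FPKM in at least 3 libraries.

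N-cadherin RNA took another order. Cdh2 (ENSMUSG00000024304, chr18:16588877-16809246, minus strand) stood at 7.87, 6.95 and 6.68 FPKM in CKO Tu, at 9.86, 9.25 and 9.04 FPKM in WT Tu, and at 12.4, 12.7 and 12.1 FPKM in WT DMSO. No library of one group overlapped another group. Cdh2 fell with tunicamycin in WT cells by 0.37 ± 0.07 on the log2 scale (SE; limma adjusted p = 0.0031). It was lower again in CKO Tu than in WT Tu, with a difference of -0.35 ± 0.07 (SE; limma adjusted p = 0.0037). CKO Tu held 42.3% less Cdh2 than WT DMSO (difference -0.72 ± 0.07, SE; limma adjusted p = 3.5e-05).

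The balance of E- and N-cadherin RNA separated CKO Tu from both WT groups. The ratio of Cdh1 to Cdh2 FPKM was 3.40, 4.27 and 3.38 in CKO Tu, 1.44, 1.72 and 1.93 in WT Tu, and 1.67, 1.84 and 2.16 in WT DMSO. All CKO Tu libraries were above all WT libraries, and the WT groups overlapped. On the log2 scale the ratio was higher by 1.12 in CKO Tu than in WT Tu and by 0.96 than in WT DMSO (exact two-sided permutation p = 0.1 each, the smallest that 3 against 3 libraries allow). Between WT Tu and WT DMSO it differed by -0.16 (exact two-sided permutation p = 0.5).

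**Figure D2:**
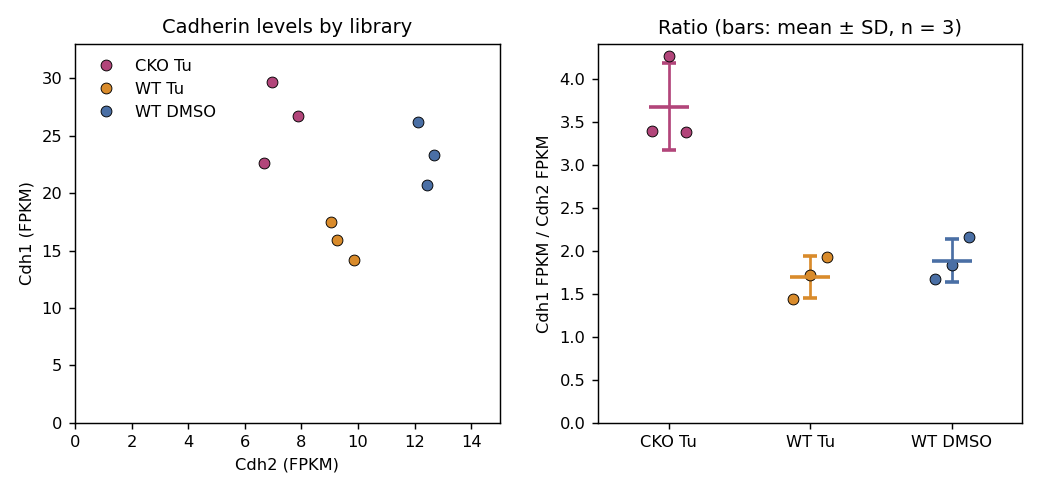
Left, Cdh1 FPKM (vertical) against Cdh2 FPKM (horizontal) with 1 point per library. Right, the Cdh1 to Cdh2 ratio per library with mean ± SD, n = 3. CKO Tu libraries lie at upper left with ratios of 3.38 to 4.27, and WT libraries of both treatments lie between 1.44 and 2.16.

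Vimentin RNA was lower in both tunicamycin-treated groups than in WT DMSO. Vim (ENSMUSG00000026728, chr2:13573927-13582826, plus strand) stood at 4.81, 7.05 and 4.40 FPKM in CKO Tu, at 6.93, 7.03 and 5.53 FPKM in WT Tu, and at 14.9, 13.6 and 13.3 FPKM in WT DMSO. All 6 tunicamycin libraries were below all WT DMSO libraries, and CKO Tu overlapped WT Tu. WT Tu was 2.14-fold lower than WT DMSO (difference -0.997 ± 0.15, SE; limma adjusted p = 0.0011). Between CKO Tu and WT Tu the difference of -0.24 did not pass (95% interval -0.57 to 0.09; limma adjusted p = 0.23). Without CKO Tu replicate 2, the highest of its group, that difference was -0.42 and passed (limma adjusted p = 0.022). In liver, vimentin is abundant in stellate, endothelial and Kupffer cells, and in bulk RNA fewer such cells and less RNA per cell cannot be told apart. Marker levels of these cells are given with the gene lists.

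Of the matrix genes, Fn1 was the most abundant. Fn1 (ENSMUSG00000026193, chr1:71585520-71653200, minus strand) encodes fibronectin, the glycoprotein that integrins bind. It stood at 47.1, 44.7 and 39.8 FPKM in CKO Tu, at 16.5, 19.7 and 19.8 FPKM in WT Tu, and at 47.1, 65.0 and 58.3 FPKM in WT DMSO. The WT Tu libraries were far below both other groups, which met at 47.1 FPKM. WT Tu was 3.04-fold lower than WT DMSO (difference -1.55 ± 0.12, SE; limma adjusted p = 3e-05), and CKO Tu was 2.35-fold higher than WT Tu (difference 1.19 ± 0.12, SE; limma adjusted p = 0.00016). Fn1 ranked at percentile 90.6 of the tested genes in CKO Tu, 76.5 in WT Tu and 93.2 in WT DMSO. CKO Tu remained below WT DMSO by a difference of -0.36 ± 0.12 (SE; limma adjusted p = 0.038), a call that was lost without CKO Tu replicate 2 or 3 (limma adjusted p = 0.076 and 0.12), without WT DMSO replicate 2 or 3 (0.13 and 0.1) and with no filter on low levels (0.09).

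Nidogen did not follow fibronectin. Nid1 (ENSMUSG00000005397, chr13:13437551-13512269, plus strand) encodes the linker between laminin and type IV collagen in basement membranes. It stood at 8.11, 8.24 and 7.71 FPKM in CKO Tu, at 14.0, 14.0 and 13.4 FPKM in WT Tu, and at 50.3, 44.3 and 45.9 FPKM in WT DMSO. The groups were far apart relative to their spread and none overlapped. WT Tu was 3.40-fold lower than WT DMSO (difference -1.69 ± 0.06, SE; limma adjusted p = 2.9e-07). CKO Tu was a further 1.72-fold lower than WT Tu (difference -0.71 ± 0.06, SE; limma adjusted p = 5.3e-05), and 5.84-fold lower than WT DMSO (limma adjusted p = 1.9e-08).

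Sparc (ENSMUSG00000018593, chr11:55394500-55423183, minus strand), which encodes a collagen-binding matricellular protein, was scarce. It stood at 0.472, 0.358 and 0.191 FPKM in CKO Tu, at 0.946, 1.43 and 1.02 FPKM in WT Tu, and at 1.94, 1.73 and 2.37 FPKM in WT DMSO, with group totals of 60, 193 and 367 fragments. The groups did not overlap, but Sparc would not have passed the filter without its WT DMSO libraries, which favours a lower level elsewhere. The log2 difference was -0.67 ± 0.14 for CKO Tu against WT Tu (SE; limma adjusted p = 0.0052) and -0.50 ± 0.14 for WT Tu against WT DMSO (SE; limma adjusted p = 0.021). The call between the WT groups was lost without WT Tu replicate 1 or 3 (limma adjusted p = 0.06 each), without WT DMSO replicate 3 (0.081), with no filter (0.06) and with a pseudocount of 0.1 (0.069).

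Among signalling genes, Tgfb2 (ENSMUSG00000039239, chr1:186622792-186705989, minus strand), which encodes a TGF-beta ligand, took the same order as Nid1 at a much lower level. It stood at 1.00, 0.891 and 1.16 FPKM in CKO Tu, at 1.67, 1.49 and 1.65 FPKM in WT Tu, and at 4.06, 4.06 and 3.69 FPKM in WT DMSO. No groups overlapped. WT Tu was 2.45-fold lower than WT DMSO (difference -0.92 ± 0.08, SE; limma adjusted p = 6.6e-05). CKO Tu was lower than WT Tu (difference -0.37 ± 0.08, SE; limma adjusted p = 0.008) and 3.87-fold lower than WT DMSO (limma adjusted p = 4e-06).

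Snai2, which encodes the repressor Slug, was the 1 tested gene of the set called higher in both tunicamycin-treated groups than in WT DMSO. Snai2 (ENSMUSG00000022676, chr16:14705852-14709385, plus strand) stood at 4.80, 6.00 and 5.49 FPKM in CKO Tu, at 4.07, 2.14 and 3.02 FPKM in WT Tu, and at 1.18, 1.86 and 1.41 FPKM in WT DMSO. CKO Tu was highest, WT Tu intermediate and WT DMSO lowest, without overlap. WT Tu was 2.07-fold higher than WT DMSO (difference 0.70 ± 0.17, SE; limma adjusted p = 0.015), which became limma adjusted p = 0.052 when WT DMSO replicate 1 was left out. CKO Tu was 1.77-fold higher than WT Tu (difference 0.68 ± 0.17, SE; limma adjusted p = 0.014), which became limma adjusted p = 0.053 when CKO Tu replicate 2 was left out. Against WT DMSO, CKO Tu was 3.66-fold higher (difference 1.38, limma adjusted p = 0.00022). Cdh1, a known target of repression by Slug, had its highest mean in the same group, CKO Tu, where it did not pass against WT DMSO.

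Snai1 (ENSMUSG00000042821, chr2:167538195-167542814, plus strand), which encodes Snail, lay near the limit of detection. It had 22, 23 and 22 fragments in CKO Tu, 12, 33 and 32 in WT Tu, and 14, 14 and 17 in WT DMSO. WT Tu replicate 1 was at the level of the DMSO libraries, and the other WT Tu libraries were the highest of the 9. CKO Tu did not overlap WT DMSO (exact two-sided permutation p = 0.1, the smallest possible), while WT Tu overlapped both other groups (exact two-sided permutation p = 0.4 each). With 3 libraries a group, no Snai1 comparison could reach a p below 0.1, so these tests cannot show a difference.

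**Figure D3:**
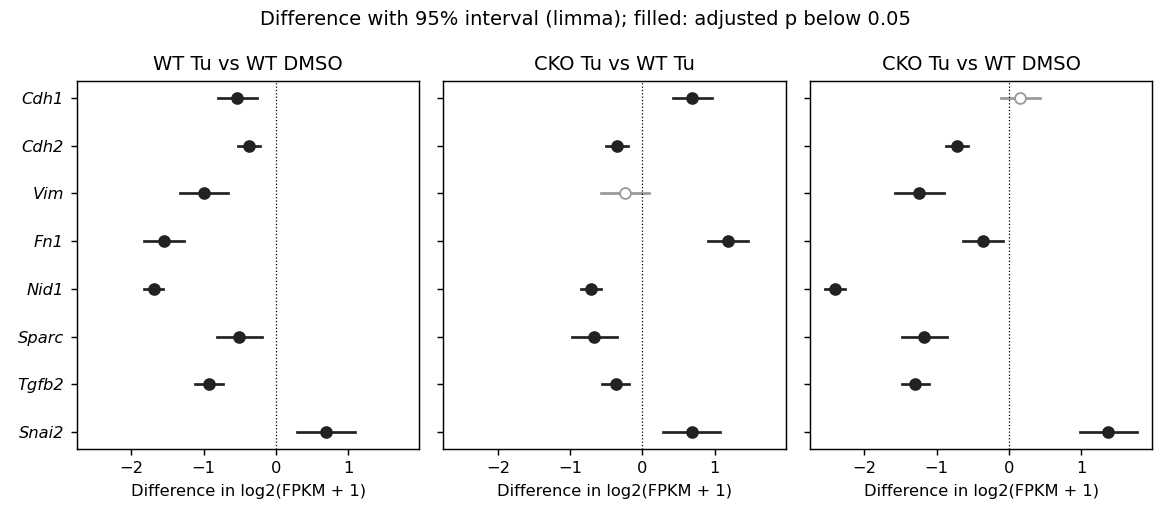
Difference in log2(FPKM + 1) with its 95% interval from limma for the 8 tested genes (vertical axis) in 3 comparisons. Filled points passed an adjusted p of 0.05. Of the 8, 7 lie left of 0 in WT Tu against WT DMSO, Cdh1, Fn1 and Snai2 lie right of 0 in CKO Tu against WT Tu, and Snai2 is the 1 filled point right of 0 in CKO Tu against WT DMSO.

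With tunicamycin, WT cells had less RNA for E-cadherin and N-cadherin as well as for vimentin, fibronectin, nidogen, Sparc and Tgfb2. Of 8 tested genes 7 fell and 1, Snai2, rose, where 33.6% of all 11858 tested genes changed, 15.9% lower and 17.7% higher. All 8 had groups without overlap, against 46.7% of tested genes. Sparc is among the 8, and it passed the filter only through WT DMSO, which favours its fall and its lack of overlap. Their median difference was -0.73, beside a median near 0 for all tested genes. Because the genes were chosen with earlier results of these data known, such counts and medians only describe them, in every comparison. Whether the set differs from other genes was not tested. Scaling to total fragments moved the median of all tested genes by -0.11 in this comparison, and the split of all calls was 2099 higher and 1882 lower as deposited, 1430 and 3108 with total fragments, and 1672 and 2595 with upper-quartile scaling. Under both scalings the calls of the 8 genes were the same, 7 lower and 1 higher.

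Between the genotypes under tunicamycin, the set divided. Cdh1, Fn1 and Snai2 were higher in CKO Tu than in WT Tu, Cdh2, Nid1, Sparc and Tgfb2 were lower, and Vim did not pass. Among all tested genes 38.3% changed, 18.7% higher and 19.6% lower in CKO Tu, and 51.2% had groups without overlap, as 7 of the 8 genes had. The median difference of the 8 was -0.29. For Cdh1 and Fn1 the difference had the opposite sign to that of WT Tu against WT DMSO, and for Cdh2, Nid1, Sparc, Tgfb2 and Snai2 it had the same sign. These comparisons share the WT Tu libraries, so an error in those libraries moves both, in opposite senses.

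CKO Tu and WT DMSO differ in genotype and treatment at once. Against WT DMSO, 6 of the 8 genes were lower in CKO Tu, Snai2 was higher and Cdh1 did not pass. Of all tested genes 49.5% changed, 24.2% lower and 25.3% higher, and 63% had groups without overlap, as 6 of the 8 had. Sparc, which passed the filter only through WT DMSO, is among the lower genes and among those without overlap. The median difference of the 8 was -0.94. Ordered by level, Cdh2, Vim, Nid1, Sparc and Tgfb2 were lowest in CKO Tu, intermediate in WT Tu and highest in WT DMSO, with neighbouring groups told apart except for Vim in CKO Tu and WT Tu.

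Promoter sequence could be read for 5 of the 9 genes from RefSeq (GRCm38.p6): Vim, Nid1, Sparc, Tgfb2 and Snai1. Shown are Tgfb2, called lower in every comparison, and Snai1, below the filter, each as the 250 bases before the RefSeq start, read 5′ to 3′ on the strand of the gene. Capitals mark the CCAAT box, the TATA box TATAAA and the Snail-type E-box CAGGTG. A match on the other strand stands as its reverse complement.
Tgfb2 promoter, chr1:186705990-186706239, minus strand: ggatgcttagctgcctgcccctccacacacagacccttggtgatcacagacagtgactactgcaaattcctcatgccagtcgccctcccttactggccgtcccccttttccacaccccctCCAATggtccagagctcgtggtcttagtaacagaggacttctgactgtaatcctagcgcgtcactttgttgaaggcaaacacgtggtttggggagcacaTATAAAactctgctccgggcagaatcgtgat
Snai1 promoter, chr2:167537945-167538194, plus strand: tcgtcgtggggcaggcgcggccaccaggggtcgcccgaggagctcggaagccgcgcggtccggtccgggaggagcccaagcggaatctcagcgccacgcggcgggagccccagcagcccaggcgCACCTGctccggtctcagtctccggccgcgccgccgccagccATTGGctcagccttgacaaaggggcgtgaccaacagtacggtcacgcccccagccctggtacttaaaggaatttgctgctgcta

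Counted back from -1 at the base before the start, Tgfb2 had CCAAT at -130 and TATAAA at -31, and Snai1 had the E-box at -126 and CCAAT at -84. Of the 5 promoters, 4 held CCAAT, 2 held TATAAA (Vim and Tgfb2), 1 held CAGGTG, and 0 held the AP-1 motif TGANTCA. In 32851 RefSeq promoters of the same length, 33.8% held CCAAT, 12.4% TATAAA, 17.2% CAGGTG and 6.75% TGANTCA on either strand. None of the matches shown overlaps another, and a match describes the sequence only.

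Other genes of cell adhesion, and the lists after them, are given as counts to be read beside all tested genes. These lists were also chosen with earlier results of these data known, so their counts are descriptions. Of all tested genes, 17.7% rose and 15.9% fell in WT Tu, and 18.7% were higher and 19.6% lower in CKO Tu than in WT Tu. Of 9 tested cadherin and catenin genes beyond the set, out of 15 in the table, 0 rose and 5 fell in WT Tu, with a median difference of -0.32. The largest fall was that of Cdh5 (difference -0.75, limma adjusted p = 0.0038). Cdh5 is an endothelial cadherin gene and is counted again among the endothelial markers below. Nectin1 and Nectin2, which encode adhesion proteins of adherens junctions, averaged 3.55 ± 0.692 and 7.20 ± 0.747 FPKM in WT Tu, against 6.34 ± 0.124 and 9.99 ± 0.829 FPKM in WT DMSO (SD, n = 3; limma adjusted p = 0.0031 and 0.0092). Jup, which encodes plakoglobin, a catenin of desmosomes and adherens junctions, averaged 5.38 ± 0.299 FPKM in WT Tu and 7.17 ± 0.298 FPKM in WT DMSO (limma adjusted p = 0.0021). With scaling to total fragments or the upper quartile 8 of the 9 fell. Between CKO Tu and WT Tu, 2 were higher, 2 lower and 5 did not pass. Nectin2 averaged 9.05 ± 0.955 FPKM in CKO Tu and 7.20 ± 0.747 FPKM in WT Tu, but this call (limma adjusted p = 0.039) was lost without any 1 of the CKO Tu replicates, WT Tu replicate 1 or 3, or WT DMSO replicate 2 or 3 (0.053 to 0.13).

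Among filament genes of epithelial cells, the hepatocyte keratins and plectin were called lower in WT Tu. Of 4 tested genes out of 12 in the table, 0 rose and 3 fell in WT Tu. Krt8 and Krt18, the keratin pair of hepatocytes, averaged 2597 ± 328 and 2183 ± 310 FPKM in WT Tu, against 3271 ± 211 and 3017 ± 270 FPKM in WT DMSO (limma adjusted p = 0.042 and 0.015). Without WT DMSO replicate 3 both keratin calls were lost (limma adjusted p = 0.13 and 0.059), as they were with no filter (0.29 and 0.13), and Krt8 was also lost without WT Tu replicate 1 or 3, WT DMSO replicate 2, or CKO Tu replicate 1 or 2 (0.051 to 0.097). Plec, which encodes plectin, a linker of intermediate filaments, averaged 14.6 ± 2.03 FPKM in WT Tu and 23.4 ± 0.592 FPKM in WT DMSO (limma adjusted p = 0.001). In CKO Tu against WT Tu, 0 of the 4 passed limma.

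Receptors for fibronectin and other matrix included the laminin receptor chains Itga3 and Itga6, both lower in WT Tu. Of 13 tested genes out of 22, 1 rose and 8 fell, with a median difference of -0.33. Without WT DMSO replicate 2 or 3, or with no filter, 5 fell, and the 1 that rose did not pass under either scaling or without any 1 of the CKO Tu replicates, WT Tu replicate 1, or WT DMSO replicate 2 or 3. Itga3, which encodes a laminin-binding integrin chain, averaged 7.69 ± 1.25 FPKM in WT Tu and 23.7 ± 0.986 FPKM in WT DMSO (difference -1.52, limma adjusted p = 9.8e-06). In CKO Tu it stood at 7.71 ± 0.507 FPKM, a difference of 0.01 from WT Tu (95% interval -0.22 to 0.24; limma adjusted p = 0.95). Itga6, another laminin receptor chain, averaged 2.41 ± 0.118 FPKM in WT Tu and 4.04 ± 0.354 FPKM in WT DMSO (limma adjusted p = 0.0014). Between CKO Tu and WT Tu, 2 of the 13 were higher, 2 lower and 9 did not pass, where 38.3% of all tested genes were called in either direction. Sdc1, which encodes syndecan-1, a heparan sulfate proteoglycan of the hepatocyte surface, averaged 54.4 ± 3.41 FPKM in CKO Tu and 34.7 ± 6.28 FPKM in WT Tu (limma adjusted p = 0.0034). Plaur, the urokinase receptor gene, averaged 11.9 ± 1.44 FPKM in CKO Tu and 23.0 ± 2.60 FPKM in WT Tu (limma adjusted p = 0.00022).

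**Figure D4:**
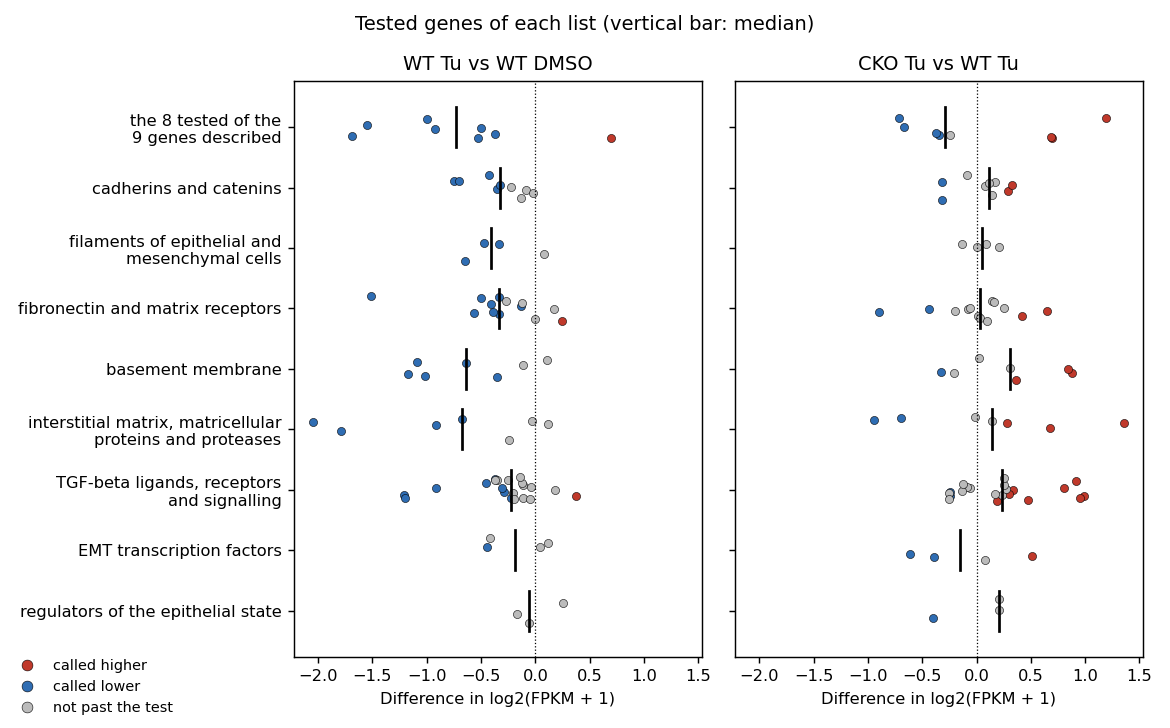
Difference in log2(FPKM + 1) of every tested gene (points) in the 9-gene set and in 8 lists of related genes, for WT Tu against WT DMSO and CKO Tu against WT Tu. Vertical bars are list medians and colours mark calls. In the left panel most calls lie left of 0. In the right panel most lists hold calls on both sides, while the filament list holds 0 calls and the epithelial regulators hold 1, left of 0.

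Among basement membrane genes, both type IV collagen chains fell in WT Tu. Of 7 tested genes out of 23, 0 rose and 5 fell in WT Tu (median difference -0.64). In CKO Tu against WT Tu, where 18.7% of all tested genes were higher and 19.6% lower, 3 of the 7 were higher and 1 lower. Without CKO Tu replicate 2 or 3, or WT Tu replicate 2, 0 were lower by limma. Col4a1 averaged 3.97 ± 0.402 FPKM in CKO Tu and 1.71 ± 0.344 FPKM in WT Tu (difference 0.88, limma adjusted p = 0.00041), beside 5.08 ± 0.432 FPKM in WT DMSO. Col4a2, its partner chain transcribed from the shared promoter region on the opposite strand, averaged 1.62 ± 0.133 FPKM in CKO Tu and 2.03 ± 0.217 FPKM in WT Tu (difference -0.21, limma adjusted p = 0.12), beside 5.45 ± 0.628 FPKM in WT DMSO. Both chains were called lower in WT Tu than in WT DMSO (limma adjusted p = 8.2e-05 for Col4a1 and 5.2e-05 for Col4a2). Whether the genotype difference itself differed between the chains was not tested. Agrn, which encodes the heparan sulfate proteoglycan agrin, averaged 11.7 ± 0.648 FPKM in CKO Tu and 6.08 ± 0.309 FPKM in WT Tu (difference 0.84, limma adjusted p = 8.6e-05). Col18a1, the source of endostatin, averaged 11.7 ± 0.428 FPKM in CKO Tu, 8.96 ± 1.97 FPKM in WT Tu and 18.8 ± 0.143 FPKM in WT DMSO. Its fall in WT Tu passed (limma adjusted p = 0.00044), while its higher level in CKO Tu (limma adjusted p = 0.049) was lost without any 1 of the CKO Tu or WT DMSO replicates (0.067 to 0.13).

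Interstitial matrix genes, matricellular genes and their proteases were mostly below the filter, with 7 tested of 32. Of the 7, 4 fell and 0 rose in WT Tu. Cyr61, a matricellular protein gene and YAP target, averaged 32.2 ± 0.418 FPKM in CKO Tu, 62.9 ± 5.33 FPKM in WT Tu and 263 ± 11.1 FPKM in WT DMSO. Ctgf, another such gene, averaged 0.512 ± 0.0385 FPKM in CKO Tu, 0.538 ± 0.191 FPKM in WT Tu and 4.29 ± 0.328 FPKM in WT DMSO. Cyr61 was called lower in both WT Tu against WT DMSO (limma adjusted p = 1.9e-07) and CKO Tu against WT Tu (1.9e-05), and Ctgf in WT Tu against WT DMSO (7.4e-06) but not in CKO Tu against WT Tu (0.92). Ctgf and Thbs1 of this list would not have passed the filter without their WT DMSO libraries, which favours a fall.

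Among genes of TGF-beta signalling other than Tgfb2, Pmepa1 fell in WT Tu, and Bmp4 and Id2 were higher in CKO Tu than in WT Tu. Of 21 tested genes out of 35, 1 rose and 8 fell in WT Tu, and 8 were higher and 2 lower in CKO Tu than in WT Tu, where 33.6% and 38.3% of all tested genes were called in either direction. The split between directions was not tested. With scaling to total fragments 0 rose and 12 fell in WT Tu, and without WT Tu replicate 3, 2 rose. Without CKO Tu replicate 1, 4 of the list were higher and 1 lower in CKO Tu than in WT Tu. Pmepa1, a TGF-beta target that restrains Smad signalling, averaged 0.723 ± 0.0309 FPKM in WT Tu and 2.97 ± 0.300 FPKM in WT DMSO (limma adjusted p = 5.3e-05). Bmp4, a ligand gene of the BMP branch, averaged 1.32 ± 0.308 FPKM in CKO Tu and 0.159 ± 0.00971 FPKM in WT Tu (limma adjusted p = 0.00053). Id2, a target of BMP signalling, averaged 5.09 ± 0.795 FPKM in CKO Tu and 2.15 ± 0.371 FPKM in WT Tu (limma adjusted p = 0.014). Bmp4 would not have passed the filter without its CKO Tu libraries, nor Eng and Pmepa1 without their WT DMSO libraries.

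Transcription factors of the epithelial-mesenchymal transition other than Snai1 and Snai2 were mostly below the filter, with 4 tested of 14. In WT Tu, Tcf3, which encodes an E-box binding factor, was the 1 that fell (limma adjusted p = 0.03), a call lost without WT Tu replicate 1 or WT DMSO replicate 1 (0.071 and 0.083). In CKO Tu against WT Tu, Sox9 was higher and Hmga2 and Zeb1 lower. Zeb1, a repressor of Cdh1 like Slug, averaged 4.30 ± 0.339 FPKM in CKO Tu, 5.96 ± 0.553 FPKM in WT Tu and 5.75 ± 0.609 FPKM in WT DMSO. It was called between CKO Tu and WT Tu (difference -0.39, limma adjusted p = 0.0097) and not between WT Tu and WT DMSO (0.74). Hmga2, which encodes a chromatin protein that can induce Snai1, averaged 0.512 ± 0.115 FPKM in CKO Tu and 1.31 ± 0.182 FPKM in WT Tu (limma adjusted p = 0.0033). It would not have passed the filter without its WT Tu libraries. Sox9, also a cholangiocyte gene, averaged 8.25 ± 0.701 FPKM in CKO Tu and 5.57 ± 1.34 FPKM in WT Tu, a call (limma adjusted p = 0.039) lost without any CKO Tu replicate, WT Tu replicate 1 or WT DMSO replicate 3 (0.053 to 0.12). Of 3 tested regulators of the epithelial state, out of 11, 0 passed limma in WT Tu against WT DMSO and 1 was lower in CKO Tu than in WT Tu, namely Grhl1, which encodes a grainyhead factor. It averaged 1.02 ± 0.197 FPKM in CKO Tu and 1.66 ± 0.279 FPKM in WT Tu, a call (limma adjusted p = 0.026) lost without CKO Tu replicate 1 or 2, or WT Tu replicate 1 or 3 (0.058 to 0.086).

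Markers of other liver cells took different orders by cell type, and their part in the results for the mesenchymal genes was not tested. The summed level of 12 endothelial markers was 5.02 to 5.21 FPKM in CKO Tu, 6.06 to 7.30 FPKM in WT Tu and 13.4 to 14.4 FPKM in WT DMSO. Of the 5 endothelial markers tested, 4 fell and 0 rose in WT Tu, and 1 was lower in CKO Tu than in WT Tu. Among all tested genes 15.9% fell in WT Tu, and 19.6% were lower in CKO Tu than in WT Tu. Of the 5, Pecam1, Stab1 and Eng would not have passed the filter without their WT DMSO libraries. The endothelial sum took the order of Cdh2, Vim, Nid1, Sparc and Tgfb2 across the groups. By mean FPKM, the markers Tek, Stab2 and Vwf did not take that order and the other endothelial markers did. Stellate cell markers summed to 6.57 to 7.41 FPKM in CKO Tu, 5.18 to 5.99 FPKM in WT Tu and 5.53 to 6.84 FPKM in WT DMSO over 13 genes. Of the 13, Ecm1 held 4.89, 4.96 and 5.66 FPKM of that sum on average, and Reln 1.90, 0.121 and 0.131 FPKM, in the same order of groups. Defining stellate markers were near 0, with Col1a1 at 0, 7 and 9 fragments in CKO Tu, WT Tu and WT DMSO, Lrat at 1, 5 and 0, Des at 4, 4 and 3, and Ngfr at 0 in every library.

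Most Kupffer cell markers were near 0, and Cd68 was not. Kupffer cell markers summed to 92.7 to 107 FPKM in CKO Tu, 96.9 to 115 FPKM in WT Tu and 75.3 to 93.0 FPKM in WT DMSO over 10 genes, nearly all of it Cd68. Cd68, a lysosomal protein gene used as a macrophage marker, averaged 100.4 ± 7.34 FPKM in CKO Tu, 107 ± 9.53 FPKM in WT Tu and 83.1 ± 8.94 FPKM in WT DMSO, and it was called higher in WT Tu than in WT DMSO (difference 0.37, limma adjusted p = 0.02). That call was lost with no filter, under either scaling, and without WT Tu replicate 2 or 3 or WT DMSO replicate 1 (0.053 to 0.096). The defining Kupffer markers Clec4f and Adgre1 had 0 and 0 fragments in CKO Tu, 2 and 7 in WT Tu, and 4 and 24 in WT DMSO, and Vsig4 had 0 throughout. Lyz2, a macrophage lysozyme gene, had 10, 9 and 94 fragments in CKO Tu, WT Tu and WT DMSO. Portal fibroblast and mesothelial markers summed to 2.06 to 2.68, 1.59 to 2.42 and 4.73 to 5.61 FPKM over 8 genes in that order of groups, mostly Entpd2, with Msln, Mfap4 and Upk1b at 0 in every library. Lymphocyte and neutrophil markers summed to at most 1.01 FPKM in any library over 6 genes. Cholangiocyte markers, mostly Spp1 and Sox9, summed to 35.9 to 39.6 FPKM in CKO Tu, 24.0 to 25.6 FPKM in WT Tu and 24.6 to 27.9 FPKM in WT DMSO over 8 genes. Spp1, the osteopontin gene, averaged 27.2 FPKM in CKO Tu and 16.7 FPKM in WT Tu (limma adjusted p = 0.00042), beside the higher Cdh1 and Sox9 of CKO Tu. Markers below the filter did not share that direction throughout, with Epcam at 34, 66 and 63 fragments in CKO Tu, WT Tu and WT DMSO, Krt19 at 42, 39 and 60, Krt7 at 3, 4 and 11, Muc1 at 25, 26 and 26, and Cftr at 7, 1 and 6. The part of biliary cells in the Cdh1 result was not tested. The 11 hepatocyte markers in the table summed to 15489 to 16557 FPKM in CKO Tu, 16935 to 18326 FPKM in WT Tu and 16927 to 18886 FPKM in WT DMSO. Of the 11, 9 were higher and 1, Alb, was lower in CKO Tu than in WT Tu, where 18.7% and 19.6% of all tested genes were.

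**Figure D5:**
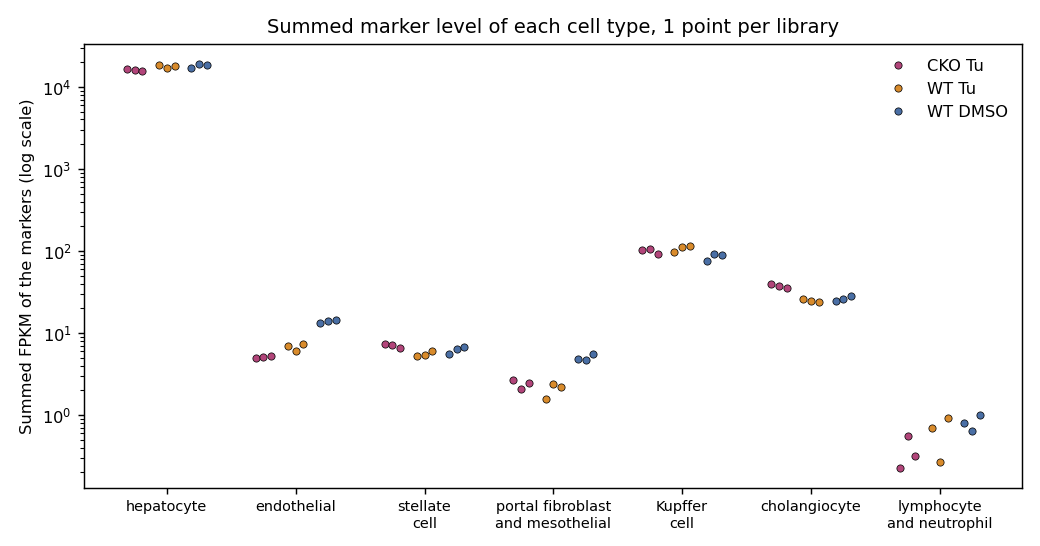
Summed FPKM of the markers of each cell type (vertical axis, log scale), with 1 point per library and groups side by side. Endothelial sums are lowest in CKO Tu (5.02 to 5.21) and highest in WT DMSO (13.4 to 14.4), and hepatocyte sums exceed those of every other type in every library.

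The genes most alike in pattern were taken by Pearson correlation of log2(FPKM + 1) over the 9 libraries, among tested genes averaging at least 5 FPKM. Such a correlation is largely set by the 3 group means and is given as a description. Nid1 and Tgfb2 shared both of their closest genes, Cyr61 (r = 0.997 and 0.993) and Sptbn1, which encodes a spectrin of the membrane skeleton (r = 0.997 and 0.995). Closest to Fn1 were Hc, the complement C5 gene, and Azgp1, a secreted glycoprotein gene, both at r = 0.989. Hc averaged 13.2 FPKM in CKO Tu, 5.73 FPKM in WT Tu and 15.8 FPKM in WT DMSO, an order like that of Fn1. Closest to Cdh1 were Igsf8 (r = 0.981) and Errfi1 (r = 0.969), an inhibitor of EGF receptor signalling, which averaged 62.1 FPKM in CKO Tu, 28.6 FPKM in WT Tu and 49.1 FPKM in WT DMSO. Pik3ap1 and Ubtd2 were closest to Cdh2 (r = 0.985 each), Rbm43 (r = 0.984) and Ptprk (r = 0.977) to Vim, Ppil1 (r = 0.989) and Fads2 (r = 0.986) to Sparc, and Sap130 (r = 0.983) and Ugp2 (r = 0.981) to Snai2.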

How the data were processed

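The authors deposited a table of FPKM values for 54532 genes in 9 libraries. Per the submitters' processing notes, HISAT2 2.2.1, featureCounts 1.5.0-p3 and the build mm10 were used; the annotation release and strand setting are not given in the sources used here. In each library FPKM times gene length moved in steps of 1 fragment (100% of values whole, tolerance 0.001 fragments), and fragments per gene were recovered from the step. The deposited FPKM imply library sizes of 0.948 to 1.07 times the recovered totals. Replicates of a group differed beyond counting noise (chi-square per degree of freedom 3.13 to 21.56), so none was counted as a repeat deposit. Genes antisense to Cdh2, Fn1, Nid1 and Tgfb2 had at most 6 fragments per library.

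The 11858 genes reaching 1 FPKM in 3 or more libraries were fitted as log2(FPKM + 1) with limma 3.58.1 in R 4.3.3, using all 9 libraries, group means and an intensity trend. Tests were two-sided, with Benjamini-Hochberg adjustment over all tested genes in each of 3 comparisons. The pseudocount of 1 makes log2 differences of low genes smaller than their FPKM ratios, and a fold is the ratio of mean FPKM. Snai1 and the Cdh1 to Cdh2 ratio were compared by exact permutation tests. The steps were tested on simulated data. Lists of related genes were described by counts and medians; up to 4 called genes of each list, those with the largest change, could be named, and some genes are not reported here. The 9 genes and the lists were chosen with earlier results of these data known. Alternatives were a pseudocount of 0.1, no filter, a filter at 5 FPKM, total-fragment and upper-quartile scaling, the replicate block, only the groups compared, no intensity trend, voom on recovered fragments, and each library left out in turn.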

Additional observations from a re-analysis of the deposited data

How the results depend on the processing

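Of 450 values of the 9 genes under alternative settings, 435 kept their direction and their side of the threshold, 12 lost a call, 1 gained a call and 2 changed sign. Part of this was fixed in advance. No permutation test of Snai1 could pass the threshold. Settings that changed only the filter, the estimate of spread or a library outside the comparison left the log2 difference as it was. Both changes of sign were in Snai1, CKO Tu against WT Tu, at 0.0044 without WT Tu replicate 2 and 0.0180 without WT Tu replicate 3, against -0.0899 with all libraries and -0.2922 at the other end of the range, without WT Tu replicate 1. With a filter at 5 FPKM, fewer of the genes were tested, and the number higher was 0 in WT Tu against WT DMSO and 0 in CKO Tu against WT DMSO, and the number lower was 2 in CKO Tu against WT Tu. With each library left out in turn, 0 to 1 of the genes were higher and 6 to 7 lower in WT Tu than in WT DMSO, 2 to 3 higher and 4 to 5 lower in CKO Tu than in WT Tu, and 1 higher and 5 to 6 lower in CKO Tu than in WT DMSO. Genes called overall then numbered 3015 to 3828, 3436 to 4842 and 4978 to 6666 in the same order of comparisons. Voom on the recovered fragments called 4296, 4776 and 6143 genes. With the replicate block, 3696, 4248 and 5683 genes were called, against 3981, 4538 and 5869 without it, and no call of the 9 genes changed. Nectin2, Col18a1 and Grhl1 lost their calls in CKO Tu against WT Tu with the block (limma adjusted p = 0.055, 0.063 and 0.051). So did Tcf3 in WT Tu against WT DMSO (0.059). With no filter these were lost too, as were Sox9 and Alb in CKO Tu against WT Tu (0.071 to 0.49). With only the groups compared, Nectin2, Col18a1, Tcf3 and Krt8 lost the calls given above (0.062 to 0.099). Same-numbered libraries did not visibly deviate together (correlations of -0.0967 to 0.0208, against -0.0608 to 0.104 for libraries with different numbers). With 3 libraries a group, such correlations cannot show whether the numbers pair the samples. Of the calls of named genes from the related lists, 5 of 21 in WT Tu against WT DMSO and 5 of 16 in CKO Tu against WT Tu were lost in at least 1 alternative and none changed sign. Depth limits Snai1 and Sparc most, with 11 to 142 fragments per library.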
